A study of Homo sapiens with 4 samples.

Results

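OAS1, OAS2, OAS3 and OASL form the human oligoadenylate synthetase family, and their transcripts were followed in MV4-11 cells in which CEBPG had been knocked down. The members were all rows of the deposited table listed under these symbols, which gave 9 of the 28581 RefSeq rows with values and 4 of the 16490 genes left after the rows of each gene were summed. MV4-11 is an established human AML (acute myeloid leukemia) cell line. A control shRNA, sh-NC, was carried by 2 libraries (labelled CEBPG presence), and a CEBPG shRNA, sh-CEBPG#3, by the other 2 (labelled CEBPG knockdown). The CEBPG shRNA was carried by the lentiviral vector pLKO.1-puro, which makes cells resistant to puromycin, and the vector of sh-NC is not given in the sources used here. Only 1 CEBPG shRNA was used for these libraries, so an effect of this hairpin and an effect of losing CEBPG cannot be told apart. Whether replicate libraries stem from separate infections is not given in the sources used here, and p-values then measure the spread between these libraries, which may be technical.

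OAS enzymes bind double-stranded RNA, a sign of viral infection, and then join ATP into short 2′,5′-linked oligoadenylates, known as 2-5A, which serve as a signal of the antiviral response. OAS1, OAS2 and OAS3 are active synthetases that differ in the number of their OAS units, while OASL has lost the synthetase activity, carries a ubiquitin-like tail and is known to act with the RNA sensor RIG-I. The genes are classical interferon-stimulated genes, whose transcription is driven by ISGF3, a complex with STAT2 and IRF9 that binds a DNA element called ISRE.

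The levels are FPKM values, fragments per kilobase of transcript scaled to the mapped reads of a library, so they can be set side by side between genes. The libraries summed to between 364353 and 389766 FPKM, and their depth is unknown, since the values carry no counts. Pearson's r of the log2 values across the 12142 genes tested was 0.993 for the sh-NC pair, 0.994 for the sh-CEBPG#3 pair and 0.962 to 0.964 across the groups. CEBPG, the targeted gene, was at 30.4 and 33.6 FPKM in the sh-NC pair against 19.2 and 17.1 FPKM in the sh-CEBPG#3 pair, in the direction of the labels. Of 14 myeloid and monocytic markers 13 were tested, while CD14, a monocyte marker, was too low to be tested. It was at 0.187 and 0 FPKM in sh-NC (mean 0.0933) and at 1.09 and 0.697 FPKM in sh-CEBPG#3 (mean 0.894). No T cell or erythroid marker on the lists had a value, and the B cell list summed to 1.15 and 1.03 FPKM in sh-NC and to 1.51 and 1.52 FPKM in sh-CEBPG#3. Of the epithelial markers EPCAM and CDH1 had no value, KRT18 did not pass, and KRT8, a keratin, was higher beyond 2-fold (means of 2.32 and 6.23 FPKM, log2 difference 1.12). The epithelial list summed to 12.1 and 12.9 FPKM in sh-NC and to 16.0 and 14.8 FPKM in sh-CEBPG#3. Of the myeloid markers, LYZ (lysozyme) and CD68 (a lysosomal protein of macrophages) passed the test beyond 2-fold, both higher in sh-CEBPG#3 cells. At any size 7 of the 13 were higher, 4 did not pass and 2 were lower, against 18.5% higher and 23.8% lower over all genes tested. The lower ones were the leukemia-associated transcription factors MEIS1 and HOXA9 with log2 differences of FPKM + 1 of -0.87 and -0.36. In FPKM, MEIS1 fell from a mean of 6.99 to 3.36, a ratio of 0.480. It stayed within 2-fold only on the scale of FPKM + 1, on which genes were called. The summed level of the whole myeloid and monocytic list was 1044 and 1142 FPKM in the sh-NC pair against 3808 and 3619 FPKM in the sh-CEBPG#3 pair, mostly LYZ. The part of these markers in the levels of the OAS genes was not tested.

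On GRCh38, OAS1 (chr12:112906962-112933219), OAS3 (chr12:112938474-112973251) and OAS2 (chr12:112978519-113011723) lie next to each other on the plus strand of chromosome 12. Only 5254 bases separate the annotated spans of OAS1 and OAS3, and 5267 bases those of OAS3 and OAS2. OASL lies on the minus strand of the same chromosome (chr12:121017761-121039246), 8006037 bases beyond OAS2. The GENCODE MANE Select transcripts have 6 exons for OAS1, 10 for OAS2, 16 for OAS3 and 6 for OASL.

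RefSeq promoter windows were at hand for OAS1 and OAS3, and the 250 bases before each start are shown because ISGF3 acts through such sequences. Capitals mark paired GAAA blocks on the plus strand, which are the ISRE core (GAAA, any 2 bases, GAAA) and its variant with a single spacer base, GAAANGAAA.
OAS1 promoter, chr12:112906712-112906961, GRCh38.p14, plus strand: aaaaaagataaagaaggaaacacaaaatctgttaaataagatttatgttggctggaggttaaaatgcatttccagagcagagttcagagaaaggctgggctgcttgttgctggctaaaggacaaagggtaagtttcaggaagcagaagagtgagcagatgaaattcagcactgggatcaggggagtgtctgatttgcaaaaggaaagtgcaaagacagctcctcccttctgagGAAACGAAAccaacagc
OAS3 promoter, chr12:112938224-112938473, GRCh38.p14, plus strand: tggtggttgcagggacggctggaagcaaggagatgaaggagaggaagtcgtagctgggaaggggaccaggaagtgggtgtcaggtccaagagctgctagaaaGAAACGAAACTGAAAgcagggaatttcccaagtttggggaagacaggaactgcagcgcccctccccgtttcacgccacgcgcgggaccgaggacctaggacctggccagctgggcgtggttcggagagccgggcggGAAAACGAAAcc

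Motifs were searched on both strands of the whole 300-base windows. The ISRE core matched at 2 places in the OAS3 window, 143 and 12 bases before the start. It had no match in the OAS1 window, and 3.57% of the 35116 promoter windows hold it. The variant GAAANGAAA, added after the windows had been read, starts 17 bases before OAS1 and 148 bases before OAS3, where it overlaps the farther ISRE core. It occurs in 3.12% of all windows. The CEBP site TTGCNNAA matched 57 bases before OAS1 and not in the OAS3 window, and 10.5% of all windows hold it. The composite core of CEBP and ATF factors, TGATGNAA, matched neither window (3.62% of all windows). The GAS element TTCNNNGAA, bound by STAT dimers, matched 168 bases before OAS1 (7.66% of all windows). The NF-kB core (GGGAA, any base, TTCC) lies 130 bases before OAS3 and is met again on the other strand, shifted by 1 base (0.439% of all windows). These matches describe letters and not binding.

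Among the genes tested, all 4 members stood near the bottom in sh-NC cells and in the upper part in sh-CEBPG#3 cells. The family was chosen for this difference, so the values below are a description without a test. Summed over the members, the family was at 1.94 and 2.01 FPKM in the sh-NC pair against 102 and 97.7 FPKM in the sh-CEBPG#3 pair. The means were 1.97 ± 0.0517 FPKM and 99.7 ± 2.80 FPKM (SD, n = 2 each), a ratio of 50.5. In bulk RNA, more cells with these transcripts and more transcripts per cell cannot be told apart.

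OAS2, whose enzyme carries a pair of OAS units, was at 0.641 and 0.696 FPKM in the sh-NC pair against 35.8 and 34.1 FPKM in the sh-CEBPG#3 pair. The group means were 0.669 ± 0.0387 FPKM and 34.9 ± 1.23 FPKM (SD, n = 2 each), so the ratio of means was 52.2, and ratios of single libraries ran from 48.9 to 55.8. OAS2 had the highest level of the family under knockdown. Its log2 difference of FPKM + 1 was 4.43 with a standard error of 0.09 in limma.

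OAS1, the smallest of the synthetases, was at 0.672 and 0.874 FPKM in the sh-NC pair against 33.2 and 32.3 FPKM in the sh-CEBPG#3 pair. Its means were 0.773 ± 0.143 FPKM and 32.7 ± 0.574 FPKM (SD, n = 2 each), a ratio of 42.4, with 37.0 to 49.4 between single libraries. The log2 difference was 4.25 with a standard error of 0.10. The spread of this ratio lay mainly on the control side, where the libraries differed more in proportion than under knockdown.

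OAS3, the largest synthetase, was at 0.236 and 0.189 FPKM in the sh-NC pair against 18.1 and 17.0 FPKM in the sh-CEBPG#3 pair. The means were 0.212 ± 0.0328 FPKM and 17.5 ± 0.781 FPKM (SD, n = 2 each). The ratio of means was 82.5, and every ratio of single libraries (72.0 to 95.5) was above those of the other members. Yet its log2 difference of FPKM + 1, 3.93 with a standard error of 0.10, was below those of OAS1 and OAS2, since adding 1 FPKM weighs most on the gene with the lowest control level. With a pseudocount of 0.01 FPKM it was 6.31 and the highest of the 4.

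OASL, the member without synthetase activity, was at 0.390 and 0.252 FPKM in the sh-NC pair against 14.7 and 14.4 FPKM in the sh-CEBPG#3 pair. Its means were 0.321 ± 0.0976 FPKM and 14.5 ± 0.211 FPKM (SD, n = 2 each), a ratio of 45.3. Ratios of single libraries ran from 36.9 to 58.3 because the sh-NC libraries differed 1.55-fold. The log2 difference was 3.56 with a standard error of 0.10, and 5.49 with a pseudocount of 0.01 FPKM. OASL had the lowest level of the family under knockdown but not in the control.

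**Figure D1:**
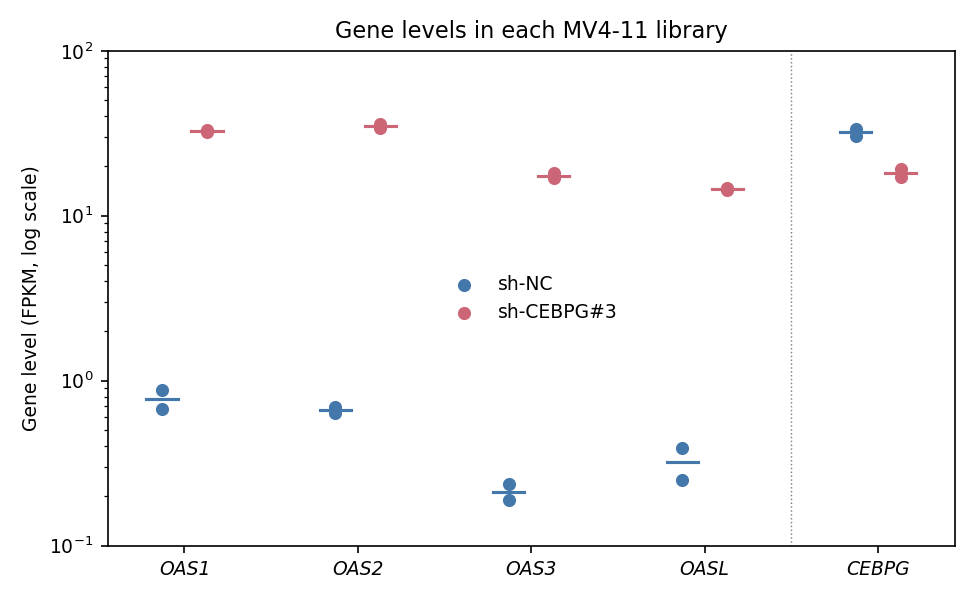
Level of each OAS gene and of CEBPG in FPKM on a log axis, with 1 point per library, blue for sh-NC, red for sh-CEBPG#3 and a short line at the group mean (n = 2). The OAS points lie under 1 FPKM in sh-NC and between 14.4 and 35.8 FPKM in sh-CEBPG#3, while the CEBPG points lie lower in sh-CEBPG#3 than in sh-NC.

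The groups did not overlap for any member, which held for 31.5% of all genes tested as higher and for 40.2% as lower. Each member was also called as higher by the general rule (adjusted p under 0.05 and beyond 2-fold), which called 2.33% of all genes tested as higher, 1.04% as lower and 3.37% in either direction. As the members were chosen on this contrast, nothing is read from these counts. Of the members, OAS3 and OASL passed the expression filter (a mean of at least 0.5 FPKM over all libraries) only through the sh-CEBPG#3 libraries. By log2 difference, OAS2 ranked 3, OAS1 ranked 5, OAS3 ranked 9 and OASL ranked 11 among the 12142 genes. In sh-NC cells, between 0.321% (for OAS3) and 5.30% (for OAS1) of the genes tested had a lower mean than the member. In sh-CEBPG#3 cells these shares were 86.1% for OAS1, 87.0% for OAS2, 74.1% for OAS3 and 69.4% for OASL. Genes low in all libraries were not tested, so these shares do not place the members among all 16490 genes. For OAS3 and OASL, whose sh-NC means lie under the filter, a low sh-NC share follows from the filter.

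The order of the levels was not the same in both groups. In each sh-NC library the order from high to low was OAS1, OAS2, OASL and OAS3, but the lower OAS1 value (0.672 FPKM) lay under the higher OAS2 value (0.696 FPKM), so this pair was not separated by its spread. The lower OASL value (0.252 FPKM) lay close to the higher OAS3 value (0.236 FPKM). The sh-NC order and shares rest on low values, from 0.189 to 0.874 FPKM. In each sh-CEBPG#3 library the order was OAS2, OAS1, OAS3 and OASL. OAS2 exceeded OAS1 there only 1.08- and 1.05-fold, the smallest step of the order. OAS1 exceeded OAS3 1.83- and 1.91-fold, and OAS3 exceeded OASL 1.23- and 1.18-fold. OAS3 made up 12.2% and 9.41% of the family's FPKM in the sh-NC pair against 17.8% and 17.4% in the sh-CEBPG#3 pair. OAS2 kept a similar share throughout, from 33.1% to 35.2%.

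Each gene except OAS3 is listed by several RefSeq transcripts, and they share exons, so the split of reads between them is an estimate. The leading OAS1 transcript under knockdown was NM_002534, which encodes the p42 isoform, at 18.4 and 18.6 FPKM. NM_001032409, which encodes p48, followed at 11.1 and 11.6 FPKM, and NM_016816, which encodes p46, was at 3.66 and 2.12 FPKM. Thus p42 took 55.4% and 57.4% of the OAS1 level in the sh-CEBPG#3 libraries, and p46 took 11.0% and 6.57%. In sh-NC replicate 1 the whole OAS1 level (0.672 FPKM) was given to NM_016816 and the other rows are listed at 0. In sh-NC replicate 2, NM_016816 had 0.0407 FPKM, NM_002534 0.279 FPKM and NM_001032409 0.554 FPKM. The control libraries therefore disagreed on which OAS1 transcript was present, and no change of isoform was read from them.

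OAS2 was split more evenly. NM_002535, which encodes the p69 isoform, was at 0.347 and 0.441 FPKM in the sh-NC pair against 15.9 and 16.1 FPKM in the sh-CEBPG#3 pair. NM_016817, which encodes p71, is listed at 0 in both sh-NC libraries and was at 13.0 and 11.7 FPKM under knockdown, where it made up 36.4% and 34.2% of the OAS2 level. NM_001032731, a shorter form, was at 0.294 and 0.255 FPKM in sh-NC and at 6.89 and 6.32 FPKM in sh-CEBPG#3. For all 3 rows the knockdown values lay above the control values, and no fold is given for the row listed at 0.

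For OASL the transcript NM_003733, which encodes the full protein with its ubiquitin-like tail, was at 0.342 and 0.173 FPKM in the sh-NC pair against 11.4 and 11.5 FPKM in the sh-CEBPG#3 pair. NM_198213, which encodes a form without this tail, was at 0.0477 and 0.0782 FPKM in sh-NC and at 3.23 and 2.85 FPKM in sh-CEBPG#3. The full form took 78.0% and 80.2% of the OASL level under knockdown and 87.8% and 68.9% in the control. The control shares lay on both sides of the knockdown shares. OAS3 is listed by NM_006187 alone.

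None of the genes on the list for the turnover and control of 2-5A passed as higher. ABCE1, a ribosome recycling factor known also to restrain the 2-5A pathway, was at 38.0 and 39.8 FPKM in sh-NC and at 28.8 and 26.1 FPKM in sh-CEBPG#3. It fell by 0.49 on the log2 scale (adjusted p = 0.000856 by limma and the Benjamini-Hochberg method). AKAP7, whose protein has a domain that can cleave 2-5A, was at 2.06 and 1.94 FPKM in sh-NC and at 1.06 and 1.22 FPKM in sh-CEBPG#3. It fell by 0.49 on the same scale (adjusted p = 0.00883 in limma). Both decreases were within 2-fold, and neither passed when the most abundant RefSeq row was tested by itself. The log2 differences were then as large, at -0.57 for ABCE1 (adjusted p = 0.0918 in limma) and -0.49 for AKAP7 (adjusted p = 0.375 in limma). The ratio of mean FPKM was 0.706 for ABCE1 and 0.572 for AKAP7. With a pseudocount of 0.01 FPKM in place of 1, the log2 differences of the summed rows were -0.50 and -0.80. PDE12, a phosphodiesterase that degrades 2-5A, was at 9.14 and 9.10 FPKM in sh-NC and at 10.3 and 8.68 FPKM in sh-CEBPG#3, a log2 difference of 0.050 (95% interval -0.17 to 0.27, adjusted p = 0.713 in limma). Without sh-CEBPG#3 replicate 1 it was -0.064. Of the 3 genes on this list, none passed the test as higher, 2 passed as lower within 2-fold and 1 did not pass, with a median log2 difference of -0.49 against -0.038 over all genes tested. By the same rule, which sets no limit on size, 18.5% of all genes tested were higher and 23.8% lower.

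No relative with an OAS-like nucleotidyltransferase fold passed the test beyond 2-fold. Of 4 tested, 2 were higher and 1 was lower at an adjusted p under 0.05 in limma, all within 2-fold. By the same rule at any size, 18.5% of all genes tested were higher and 23.8% lower. CGAS, the DNA sensor that makes cyclic GMP-AMP, was at 21.5 and 24.2 FPKM in sh-NC and at 33.9 and 29.8 FPKM in sh-CEBPG#3. Its log2 difference was 0.46. ZFR was at 61.9 and 63.7 FPKM in sh-NC and at 96.4 and 86.9 FPKM in sh-CEBPG#3, a log2 difference of 0.54. ILF2, part of a complex that binds RNA, was at 130 and 137 FPKM in sh-NC and at 73.0 and 70.8 FPKM in sh-CEBPG#3. Its log2 difference was -0.88, the largest in size of the 4 tested.

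Among other proteins that bind double-stranded RNA or relay its signal, 4 of 10 genes tested were higher beyond 2-fold and none was lower beyond 2-fold, against 2.33% and 1.04% of all genes tested. At any size 5 of the 10 were higher and 1 was lower, against 18.5% and 23.8% of all genes tested. IFIH1, which encodes the sensor MDA5, was at 1.47 and 1.92 FPKM in sh-NC and at 9.17 and 8.50 FPKM in sh-CEBPG#3, a log2 difference of 1.87 (adjusted p = 1.42e-06 by limma and the Benjamini-Hochberg method). EIF2AK2, which encodes the kinase PKR, was at 4.18 and 4.96 FPKM in sh-NC and at 19.5 and 17.3 FPKM in sh-CEBPG#3, a log2 difference of 1.80 (adjusted p = 9.96e-07 in limma). RIGI, listed under its older symbol DDX58 and encoding the partner of OASL, rose from a mean of 3.03 to 9.61 FPKM (log2 difference 1.40, adjusted p = 2.98e-06 in limma). DHX58, a regulator of these sensors, rose from 0.562 to 2.45 FPKM (1.15, adjusted p = 0.000109 in limma). Within 2-fold, ADAR was higher (log2 difference 0.60, adjusted p = 0.000262 in limma). MAVS was lower, with means of 9.28 FPKM in sh-NC and 7.70 FPKM in sh-CEBPG#3 (-0.24, adjusted p = 0.0445 in limma). DICER1, PRKRA, TARBP2 and STAU1, which bind double-stranded RNA in microRNA processing and RNA decay, did not pass the test. Their log2 differences ran from -0.19 to 0.18.

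Of 14 genes tested on the list of interferon receptors and ISGF3, 3 were higher beyond 2-fold and none was lower. Over all genes tested these shares were 2.33% and 1.04%. The 3 genes were IRF9, STAT2 and IRF7. IRF9 rose from a mean of 4.06 to 30.6 FPKM (log2 difference 2.64, adjusted p = 1.65e-08 by limma and the Benjamini-Hochberg method). STAT2 rose from 12.1 and 11.9 to 36.8 and 35.3 FPKM (1.51, adjusted p = 4.61e-07 in limma). IRF7, a factor that amplifies interferon production, rose from 0.845 to 4.85 FPKM (1.67, adjusted p = 2.43e-05 in limma). At any size 8 of the 14 were higher and none was lower, against 18.5% and 23.8% of all genes tested. The 8 included the receptor chains IFNGR2, IL10RB and IFNAR2, the kinase JAK2 and the factor IRF2, all within 2-fold. Their log2 differences were 0.72, 0.36, 0.28, 0.34 and 0.32. The other 6 did not pass, among them the receptor chains IFNAR1 and IFNGR1 at 0.054 and 0.088 and the kinases TYK2 and JAK1 at 0.00099 and -0.066. Of the 13 interferon ligand genes on the list, IFNB1 alone had a value, between 0 and 0.188 FPKM and too low to be tested, with the groups overlapping.

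Of 6 genes tested on the list of ubiquitin-like modifiers and feedback, 3 were higher beyond 2-fold and none was lower. Over all genes tested these shares were 2.33% and 1.04%. At any size 4 of the 6 were higher and 1 was lower, against 18.5% and 23.8% of all genes tested. ISG15, a ubiquitin-like protein whose fold the tail of OASL resembles, was at 7.12 and 8.52 FPKM in sh-NC and at 149 and 150.3 FPKM in sh-CEBPG#3, a log2 difference of 4.10 (adjusted p = 1.34e-09 by limma and the Benjamini-Hochberg method). USP18, which removes ISG15 and damps the receptor, rose from 2.79 to 16.3 FPKM (2.19, adjusted p = 1.54e-07 in limma). UBE2L6, the conjugating enzyme for ISG15, rose from 8.14 to 34.5 FPKM (1.96, adjusted p = 7.88e-08 in limma). Within 2-fold, UBA7 rose from a mean of 10.9 to 14.3 FPKM (0.36, adjusted p = 0.00875 in limma). SOCS1, an inhibitor of JAK kinases, fell by 0.42 on the log2 scale, also within 2-fold (adjusted p = 0.0019 in limma).

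Over all lists together, 19 of 37 genes tested were higher and 5 lower at any size in limma, against 18.5% and 23.8% of all genes tested. Beyond 2-fold 10 were higher and 0 lower, against 2.33% and 1.04% of all genes tested. These same 10 genes passed in each alternative run, and testing each RefSeq row by itself added ADAR, an enzyme that edits double-stranded RNA. The lists were drawn up with earlier results of these data known, and their counts are no independent evidence of a direction.

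Most tested genes around the members did not pass beyond 2-fold. Of 15 protein-coding neighbours within 500000 bases of the OAS1, OAS3 and OAS2 cluster, 9 were tested, and 2 were higher beyond 2-fold, which 2.33% of all genes tested were. These were PLBD2 and SDS, which lie 347 and 381 kb beyond OAS2. PLBD2, a lysosomal protein, rose from a mean of 11.2 to 31.7 FPKM (log2 difference 1.42, adjusted p = 1.06e-06 by limma and the Benjamini-Hochberg method). SDS, serine dehydratase, rose from 0.256 to 3.47 FPKM (1.83, adjusted p = 2.81e-06 in limma) and passed the expression filter only through the sh-CEBPG#3 libraries. On the OAS2 side the nearest tested genes were DDX54 and RITA1, 145 and 174 kb away, and on the OAS1 side PTPN11, 397 kb away. Their log2 differences were -0.20, -0.16 and -0.16, and they did not pass. SLC8B1 and SDSL, 287 and 411 kb beyond OAS2, were higher within 2-fold, by 0.62 and 0.72 on the log2 scale. RPL6, 488 kb before OAS1, fell by 0.43. At any size 4 of the 9 were higher, 1 was lower and 4 did not pass. Over all genes tested, 18.5% were higher and 23.8% lower at any size. The genes next to the cluster, RPH3A and DTX1, had no value. Around OASL 13 of 16 neighbours were tested, and P2RX7, an ATP-gated channel 93.6 kb away, was the only one beyond 2-fold, with means of 11.7 and 29.8 FPKM (1.28, adjusted p = 1.64e-06 in limma). At any size 3 of the 13 were higher, 4 were lower and 6 did not pass.

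Across the 4 libraries, the genes with the profile most like that of the family were IFIT1, ISG15, IFIT3, IL4I1 and IFIT2. Likeness was the Euclidean distance between centred log2 profiles, and it was 0.128 for IFIT1, 0.177 for ISG15, 0.211 for IFIT3, 0.334 for IL4I1 and 0.462 for IFIT2. The members themselves lay between 0.119 (OAS3) and 0.499 (OASL) from their mean profile. IFIT1, which encodes a protein that binds viral RNA ends, was at 0.171 and 0.309 FPKM in sh-NC and at 20.9 and 19.5 FPKM in sh-CEBPG#3, close to OAS3 in level and in difference. ISG15 had a log2 difference like that of IFIT1, from a control level above that of every member. IL4I1, a secreted amino acid oxidase, was at 0.735 and 0.965 FPKM in sh-NC and at 38.0 and 35.3 FPKM in sh-CEBPG#3. With 4 libraries in 2 groups, this measure mostly ranks the size of the group difference.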

How the data were processed

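RNA-seq libraries of MV4-11 cells (2 sh-NC, 2 sh-CEBPG#3) were grouped by their titles. After read filtering, the authors aligned with HISAT (HISAT2 2.0.5 and hg38 per the submitters' processing notes) and deposited FPKM values per RefSeq transcript and library. The program behind the FPKM values and the annotation release are not given in the sources used here. The authors used DESeq2, whose input is not given in the sources used here, and no count test was run here because the deposited values are FPKM. Low values (under 0.06 FPKM in both libraries of a group) showed no steps of whole reads, since at most 1.17% of them shared 1 ratio between libraries.

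Rows were summed by symbol, and 199 of 28780 listed rows have no value. Genes averaging 0.5 FPKM or more across all 4 libraries were compared as log2(FPKM + 1) with limma 3.58.1 in R 4.3.3 (mean-variance trend, no block) and adjusted by the Benjamini-Hochberg method over all 12142 genes. On this scale, differences of weakly expressed genes come out too small. Genes were called at an adjusted p under 0.05 and an absolute log2 difference above 1, as 409 genes were (283 higher, 126 lower). An exact permutation test of 2 against 2 cannot go below 0.333.

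The members, gene lists and motifs were chosen with earlier results of these data known, and the variant motif after the windows were read. Named were the members, CEBPG, the 2-5A turnover list, called genes of the other lists and neighbours, and the 5 most similar profiles. Genes given as examples of values that did not pass, and CGAS, ILF2, SOCS1, LYZ, CD68, CD14, KRT8, MEIS1, HOXA9, ADAR and the genes called within 2-fold, were named after their values were seen. Promoter windows and gene spans are from RefSeq (GRCh38.p14), with windows for OAS1 and OAS3 but not for OAS2 and OASL, and exon counts are from GENCODE. The planned comparison of protein sequences was not run, and some listed or neighbouring genes are not reported here and stay out of the counts of lists and neighbours. Python 3.11.15 was used for the lists and figures.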

Additional observations from a re-analysis of the deposited data

How the results depend on the processing

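The size of the OAS differences depended on the pseudocount, and their direction did not change in any alternative. On the log2 scale, OAS1, OAS2, OAS3 and OASL were at 4.25, 4.43, 3.93 and 3.56. They were at 5.24, 5.51, 5.82 and 5.14 with a pseudocount of 0.1 FPKM and at 5.40, 5.69, 6.31 and 5.49 with 0.01. With the most abundant RefSeq row alone, OAS1, OAS2 and OASL were at 4.10, 3.61 and 3.31. With any single library left out, the values ran from 4.17 to 4.34 for OAS1, 4.39 to 4.46 for OAS2, 3.89 to 3.98 for OAS3 and 3.48 to 3.63 for OASL. The log2 difference of CEBPG was -0.78, and -0.87 to -0.70 with a library left out.

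The number of genes called, 409 (283 higher, 126 lower), was 779 (469 and 310) and 819 (477 and 342) with pseudocounts of 0.1 and 0.01, and 199 rows were lower when RefSeq rows were tested singly. With rows tested singly, 12 pathway genes were higher and 2 lower at any size, against 19 and 5. A lone library in a group is assumed to vary like the other group, and those fits gave 423 to 461 genes. PDE12, at 0.050, did not pass and ran from -0.064 to 0.16 with a library left out, the negative value being that without sh-CEBPG#3 replicate 1. For these changes the cause was not tested, apart from the weight that smaller pseudocounts give to low values.

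The deviations of libraries with equal replicate numbers from their group means correlated at 0.0606 across the genes tested. This single value cannot show whether such libraries share an infection or a preparation. In the fit with a replicate block, 419 genes were called, and the same 10 pathway genes were higher beyond 2-fold.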
